A study of Mus musculus with 16 samples.

Results

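The Dlg and Dlgap genes encode the membrane-associated and middle layers of the scaffold under excitatory synapses. They were followed here by RNA sequencing in CA1, the output field of the mouse hippocampus. The 8 members, Dlg1 to Dlg4 and Dlgap1 to Dlgap4, were taken by gene symbol from the 46403 symbols in the deposited tables. Together they hold 89 of the 111706 transcripts, 52 of them annotated as protein-coding. The comparison was between genotypes, 8 Fmr1-KO animals and 8 WT animals, the latter labelled C57BL/6. Fmr1 encodes FMRP, an RNA-binding protein whose loss underlies fragile X syndrome. Every animal of both genotypes was a yoked control, that is, an animal matched to a trained partner, in an active place avoidance task, so no trained group enters any value. The labels give each animal its own code, a number with the letter B or D, and some numbers recur within a genotype. The sources used here give no allele, strain behind the knockout, age, sex or relatedness.

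Proteins of the PSD-95 family (Dlg1 to Dlg4) are MAGUKs, built from PDZ domains, an SH3 domain and an inactive guanylate kinase domain. The PDZ domains hold receptors, channels and adhesion proteins at the membrane. The guanylate kinase domain binds the SAPAP proteins made from the Dlgap genes, and the carboxyl end of a SAPAP protein binds Shank, which links the complex to Homer and actin. FMRP is known to bind several mRNAs of this complex, those of Dlg4 and Dlgap3 among them.

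Total estimated counts ran from 1480966 to 3275003 in 14 libraries and were 878484 and 515103 in WT replicates 3 and 6. In those 2 libraries the 10 most abundant genes took 10.3% and 31.6% of all counts, against 3.73% to 6.06% elsewhere. Protein-coding transcripts took 80.7% and 58.4% of the counts there, against 87.6% to 91.8% elsewhere. The TMM factor, which rescales library size, was 0.672 in WT replicate 6 and 0.967 to 1.07 in all other libraries. The members together took 0.36% to 0.407% of the counts in the 14 deeper libraries, 0.442% in WT replicate 3 and 0.234% in WT replicate 6. Fmr1, the targeted gene, had a log2 fold change (Fmr1-KO over WT) of −1.41 (edgeR, Benjamini-Hochberg adjusted p = 0.0112), and its 8 Fmr1-KO values lay below all 8 WT values. All 7 CA1 pyramidal and all 5 excitatory neuron markers were present, summing to 2625 to 3081 and 3187 to 4514 CPM (TMM-normalised counts, scaled to a common library size) over the 16 libraries. The 8 markers of CA3 and dentate neurons summed to 65.8 to 156 CPM. Of these, C1ql3 (45.4 to 116 CPM) and Bok (2.36 to 24.1 CPM) were present in every library, and Prox1, Dsp, C1ql2, Cpne4, Iyd and Tdo2 were under 1 count in at least 1.

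All 8 members were expressed in every library, from 20.7 TPM on average for Dlg1 to 599 TPM for Dlg4, and no member passed the test between genotypes. Levels of different genes can be set side by side only per length, so their order was read from TPM, which scales counts by transcript length, summed per gene and compared within each library. Dlg4, which encodes PSD-95, was first at 599 ± 188 TPM (SD, n = 16). It exceeded Dlgap1, the next at 470 ± 159 TPM, in 15 libraries, all but Fmr1-KO replicate 1. Dlgap1 exceeded Dlgap3 (204 ± 66.5 TPM) in all 16. Dlgap3 and Dlgap4 (176 ± 53.8 TPM) lay close together, with Dlgap3 above Dlgap4 in 7 WT but only 4 Fmr1-KO libraries. Dlgap4 exceeded Dlg3 (111 ± 44.1 TPM) in all 16, and Dlg3 exceeded Dlg2 (95.4 ± 38.2 TPM) in 12, so that these 2 neighbours were not separated. Dlgap2 (54.2 ± 21.2 TPM) was below Dlg2 in all 16 libraries, and Dlg1 (20.7 ± 10.3 TPM) was below Dlgap2 in 15. The TPM values of WT replicate 6 were low for all 8 genes, from 3.17 for Dlg1 to 66.1 for Dlg4, and WT replicate 3 stood at 44.9 for Dlg1 and 16.9 for Dlg3.

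Within each family 1 gene led in every library. Dlg4 took 65.7% to 77.6% of the summed TPM of the Dlg family in every library, Dlg2 7.19% to 18.8% and Dlg1 1.47% to 7.97%. Dlg3 took 11.9% to 17.02% in 15 libraries and 3.0% in WT replicate 3. Within the Dlgap family Dlgap1 took 46.8% to 57.5%, Dlgap4 17.6% to 22.6% and Dlgap2 3.66% to 7.06%. The share of Dlgap3 was 25.3% ± 3.43 in WT and 20.3% ± 1.73 in Fmr1-KO (SD, n = 8 each), with 6 Fmr1-KO libraries below the lowest WT value. The share of Dlgap1 was 49.1% ± 2.69 in WT and 54.02% ± 2.52 in Fmr1-KO, with 5 Fmr1-KO libraries above the highest WT value. These shares were compared as values only and were not tested, and within a family they depend on each other.

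**Figure D1:**
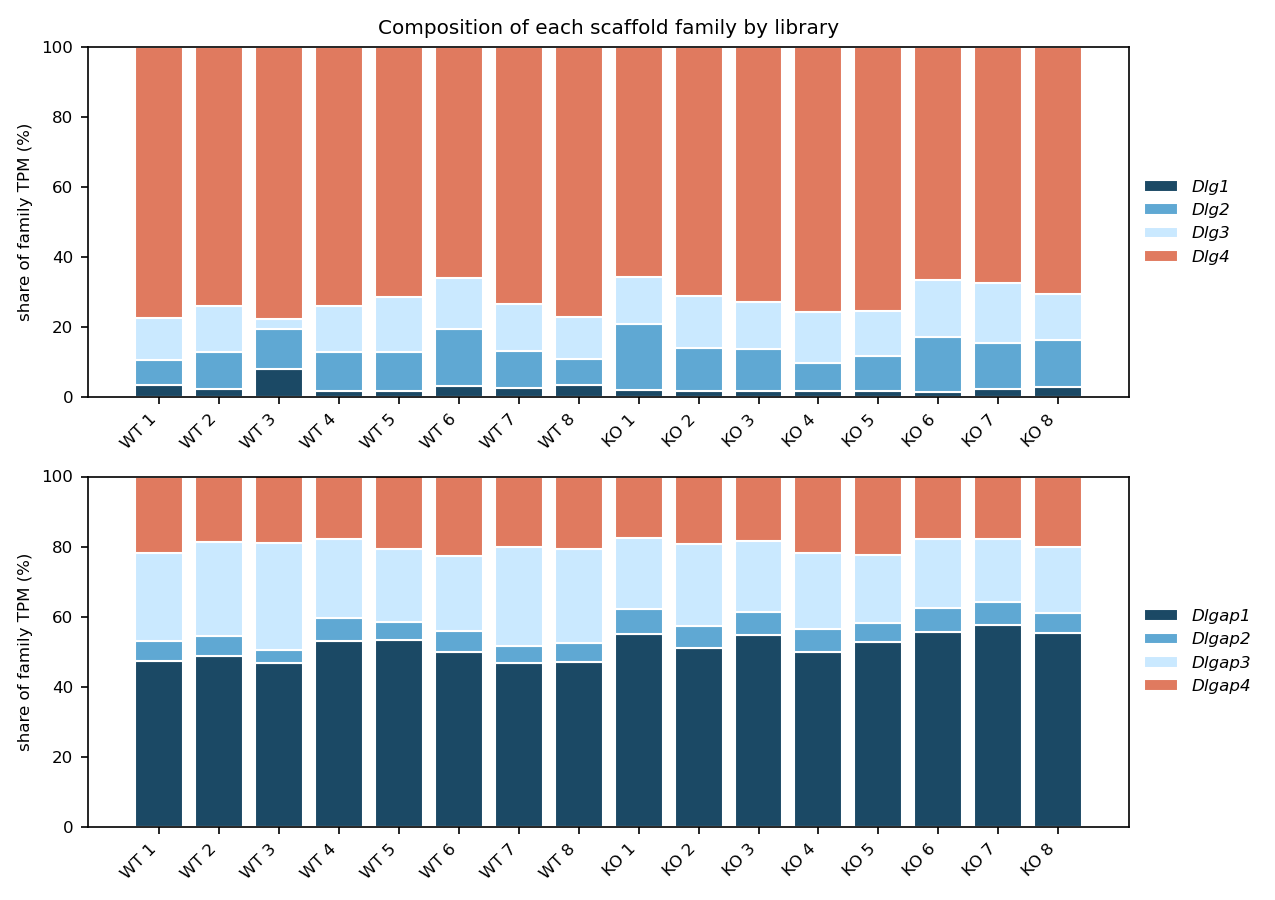
Share of each gene in the summed TPM (percent, vertical axis) of the Dlg family (top) and the Dlgap family (bottom) in each of the 16 libraries (horizontal axis, 8 WT and 8 Fmr1-KO). Dlg4 fills 65.7% to 77.6% of every upper bar and Dlgap1 46.8% to 57.5% of every lower bar, and Dlg3 shrinks to 3.0% in WT replicate 3.

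Between genotypes, none of the 8 members passed the threshold, an adjusted p under 0.05 over the 11515 genes tested with the edgeR quasi-likelihood test and Benjamini-Hochberg adjustment, where 2 genes or 0.0174% passed. The smallest adjusted p of a member by edgeR was 0.554, that of Dlgap3. At an unadjusted p under 0.05 there were 2 of the 8, Dlgap3 and Dlg1, both lower in Fmr1-KO, against 909 or 7.89% of all genes tested, and 4.28% of all genes for the lower direction alone. The members split into 4 with a higher and 4 with a lower fitted value, and their median log2 fold change was 0.03, beside −0.01 over all genes tested, of which 51.9% were lower. No member separated the genotypes completely, as 5 genes or 0.0434% of those tested did. For Dlg1 and Dlgap3 all 8 Fmr1-KO libraries lay below the WT median, a pattern shown by 2.59% of the genes tested. How many libraries lay beyond the range of the other group is given below for single members only. It was not counted over all genes, so how common such counts are is not known. The DESeq2 Wald test also called 0 members, beside 0.0542% of the 11066 genes given an adjusted p. It put 3 at an unadjusted p under 0.05 (Dlg1, Dlg4 and Dlgap3), beside 5.3% of 26471 genes. That larger set had no filter on low counts, so its share is not comparable with the 7.89% of edgeR. In tissue RNA, fewer cells of a type and less RNA per cell cannot be told apart, which holds for each difference given here.

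Dlg4 encodes PSD-95, the most abundant MAGUK of the postsynaptic density, and lies on chromosome 11 at 70016942 to 70047522 (plus strand, GRCm38, ENSMUSG00000020886). Its level in WT had a lowest value of 1002, a median of 1046 and a highest of 1504 CPM. In Fmr1-KO these were 906, 972 and 1083 CPM. The groups overlapped, 6 of 8 Fmr1-KO libraries were below every WT library, and the highest value of all was that of WT replicate 3. The log2 fold change was −0.17 (SE 0.08, 95% interval −0.35 to 0.002, edgeR adjusted p = 0.63). Without WT replicate 3 it was −0.09, with WT at 1047 ± 49.9 CPM (SD, n = 7) and Fmr1-KO at 979 ± 62.0 CPM (SD, n = 8).

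Nearly all Dlg4 counts fell on 2 protein-coding transcripts. Dlg4-003 held 51.8% and Dlg4-001 46.5% of the gene's estimated counts in the mean over 16 libraries. Their balance did not differ between the groups beyond its spread, with Dlg4-001 at 45.3% ± 2.29 of the summed TPM of both in WT and 45.4% ± 8.41 in Fmr1-KO (SD, n = 8 each). The spread was wider in Fmr1-KO, where replicate 1 stood at 62.7%. The start of the Dlg4-001 coding sequence is printed because it carries the membrane anchor of PSD-95. It is the first coding exon, chr11:70018920-70018949, with the codons for cysteine, numbers 3 and 5 counted from the start codon, in capitals; these residues carry the palmitate that holds the protein at the synapse.
Dlg4-001: atggacTGTctcTGTatagtgacaaccaag
The annotation used here gives Dlg4-001 and Dlg4-003 other lengths (3488 and 2708 bases) than the deposited tables (3457 and 3204 bases), so where they differ is not stated.

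Dlg2 encodes PSD-93, the closest relative of PSD-95, and is the longest gene of the set at 1973 kb (chromosome 7, 90476672 to 92449247, plus strand, GRCm38, ENSMUSG00000052572). In WT it ran from 175 CPM over a median of 214 to 279 CPM. In Fmr1-KO it ran from 172 CPM over a median of 238 to 289 CPM. The ranges covered each other almost entirely, and both groups held libraries near 200 and near 280 CPM. Fitted over all libraries, the log2 fold change was 0.10 (SE 0.12, 95% interval −0.15 to 0.36, adjusted p = 0.871 by edgeR). Leaving out 1 library moved it between 0.06 (without WT replicate 1) and 0.16 (without Fmr1-KO replicate 5). One transcript, Dlg2-001, held 83.5% of the counts, and its own log2 fold change was 0.14 (SE 0.15), or 0.07 to 0.22 with 1 library left out.

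Dlg3 encodes SAP102, the MAGUK that leads at young synapses, and lies on chromosome X like Fmr1, at 100767722 to 100818410 (plus strand, GRCm38, ENSMUSG00000000881). In WT its lowest value was 109 CPM, its median 310 and its highest 365 CPM. In Fmr1-KO the lowest was 281, the median 334 and the highest 353 CPM. The lowest value belonged to WT replicate 3 and stood apart from the other 7 WT libraries, which began at 288 CPM. The log2 fold change was 0.15 (SE 0.15, 95% interval −0.16 to 0.46, adjusted p = 0.83 by edgeR) and 0.04 without WT replicate 3, where WT averaged 320 ± 28.2 CPM (SD, n = 7) and Fmr1-KO 328 ± 25.6 CPM (SD, n = 8).

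Most Dlg3 counts were divided between 3 coding transcripts. Dlg3-003 held 41.7%, Dlg3-006 40.3% and Dlg3-001 15.5% of the gene's counts. These forms differ by 2 small coding exons. Dlg3-003 has both, Dlg3-001 has only the 54-base exon and Dlg3-006 has neither. Both exons are printed with 15 bases of the spliced transcript on each side, the exon in capitals, at chrX:100771307-100771360 and chrX:100811502-100811543, because the shares below rest on reads that tell them apart.
Dlg3-003, 54-base exon: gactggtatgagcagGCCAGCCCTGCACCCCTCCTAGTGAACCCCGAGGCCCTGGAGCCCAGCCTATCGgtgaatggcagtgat
Dlg3-003, 42-base exon: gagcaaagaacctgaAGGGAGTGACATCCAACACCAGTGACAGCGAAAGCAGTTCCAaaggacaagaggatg
Transcripts with the 54-base exon made up 55.9% ± 29 of the summed TPM of these forms in WT and 61.0% ± 11.3 in Fmr1-KO (SD, n = 8 each). The WT spread came mainly from the shallow libraries, at 0.00101% in WT replicate 3 and 100% in WT replicate 6, and the 6 deeper WT libraries averaged 57.8% ± 12.6. Transcripts with the 42-base exon made up 38.7% ± 17.7 in WT and 46.5% ± 11.02 in Fmr1-KO, or 45.3% ± 9.24 in the 6 deeper WT libraries. With 91 Dlg3 counts in WT replicate 3, Dlg3-003 was listed at 0 there, which allows a share of up to 3.30% by counting error alone. Dlg3-006 was listed at 0 among the 105 Dlg3 counts of WT replicate 6, which allows up to 2.86%.

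Dlg1 encodes SAP97, which acts in the delivery of AMPA receptors and is also made outside neurons, and lies on chromosome 16 at 31663443 to 31875129 (plus strand, GRCm38, ENSMUSG00000022770). In WT the lowest value was 31.8, the median 40.5 and the highest 51.2 CPM. In Fmr1-KO the lowest was 27.8, the median 33.0 and the highest 38.5 CPM. The groups overlapped between 31.8 and 38.5 CPM, 6 WT libraries were above every Fmr1-KO library and 4 Fmr1-KO libraries were below every WT library. By edgeR the log2 fold change was −0.33 (SE 0.14, 95% interval −0.61 to −0.04), a level 1.25-fold lower. The unadjusted edgeR p was 0.0285 and the Benjamini-Hochberg adjusted p 0.617. The same fold change was found without WT replicates 3 and 6 (−0.33), where 7.32% of all genes had an unadjusted p under 0.05. On length-scaled TPM counts it was −0.93 (SE 0.32, adjusted p = 0.561 by edgeR). Over the 29 alternative settings it ran from −0.93 to −0.27, with an unadjusted p under 0.05 in 19 of them. Scaled by library totals it was −0.30, with an unadjusted edgeR p of 0.0827.

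Dlg1 rested on the fewest reads, 13 to 150 estimated counts a library, and its transcripts could not be followed singly. It has 15 transcripts, of which 2 passed the filter on low counts. The largest, Dlg1-002, held 28.5% of the counts on average but between 0 and 96.4% in single Fmr1-KO libraries. Dlg1-002 was listed at 0 in both groups (4 libraries in all, each with 35 to 108 Dlg1 counts). Summed over protein-coding transcripts alone, the log2 fold change of Dlg1 was −0.32 with an unadjusted edgeR p of 0.156.

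**Figure D2:**
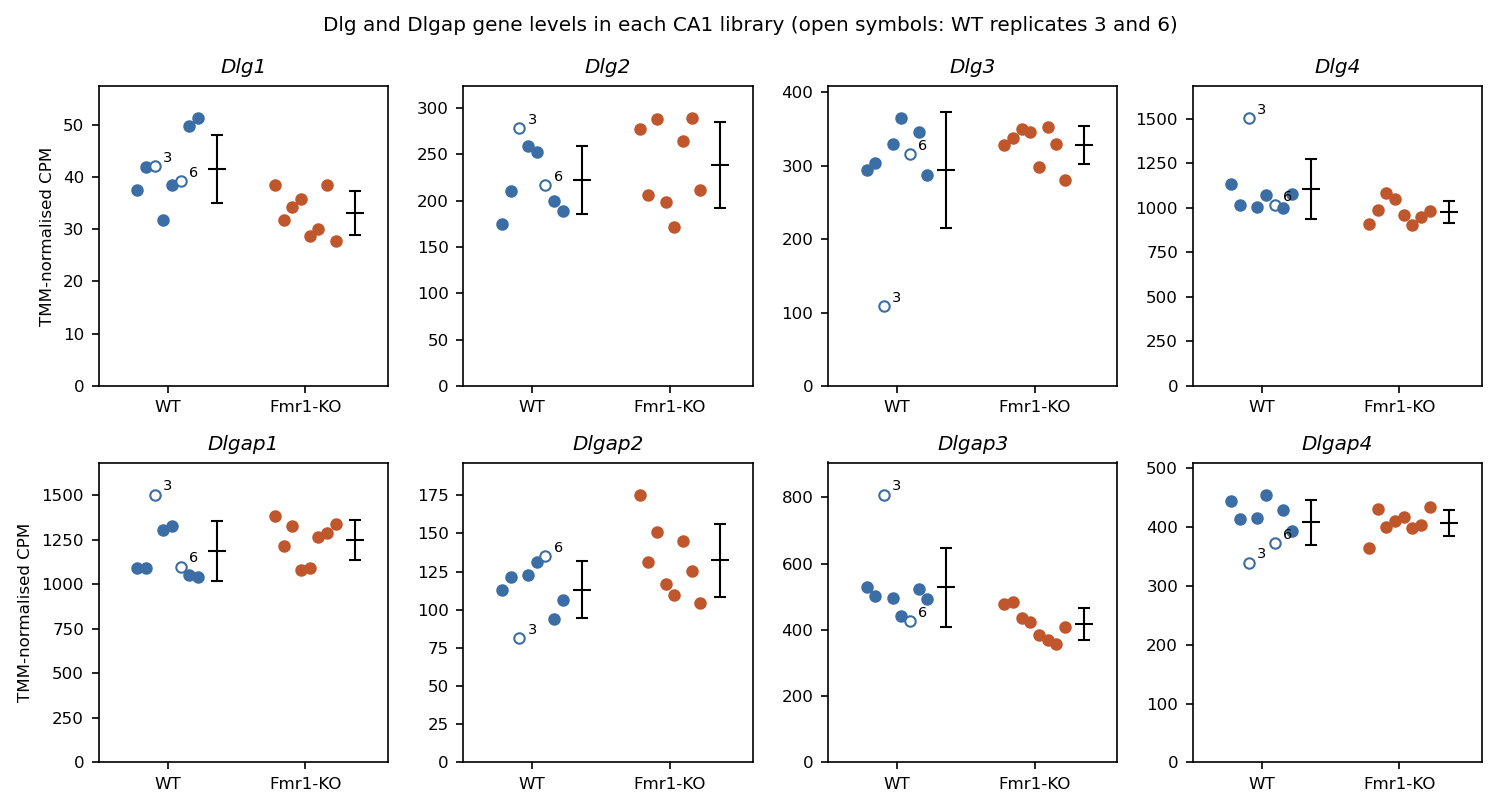
TMM-normalised CPM (vertical axes, starting at 0) of the 8 members in each WT and Fmr1-KO library, with bars for the mean and SD of each group (n = 8) and open symbols for WT replicates 3 and 6. WT replicate 3 is the highest point for Dlg4 (1504), Dlgap1 (1502) and Dlgap3 (808) and the lowest for Dlg3 (109), Dlgap2 (81.6) and Dlgap4 (340).

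The 4 SAPAP proteins share the end that binds Shank. The last 30 coding bases before the stop codon are printed for the leading transcript of each gene, with the last 4 codons in capitals, to show how far the family agrees there. They lie at chr17:70818202-70818231, chr8:14846676-14846705, chr4:127236336-127236365 and chr2:156762871-156762900 (GRCm38, plus strand).
Dlgap1-006: atctacatccccgaggcgCAGACCCGGCTC
Dlgap2-001: atctacatccctgaggccCAGACGCGGCTC
Dlgap3-001: atctacatccccgaggccCAGACCAGGCTG
Dlgap4-201: atttatgtccccgaggccCAGACCAGGCTC
Any pair of the 4 has 24 to 27 of these 30 bases in common, and 9 to 11 of the last 12. Such likeness is local. Of the 31-base words in all annotated transcripts of each member, 0% (Dlg3, Dlgap2 and Dlgap4) to 3.54% (Dlg4) also occur in another gene, so few reads could be shared with a relative.

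Dlgap3 encodes SAPAP3, known from the striatum, where its loss in mice causes excessive grooming, and its mRNA is carried into dendrites. It lies on chromosome 4 at 127169204 to 127237022 (plus strand, GRCm38, ENSMUSG00000042388). In WT its lowest value was 427, its median 500.4 and its highest 808 CPM. In Fmr1-KO the lowest was 357, the median 417 and the highest 484 CPM. All 8 Fmr1-KO libraries were below the WT median, 5 were below every WT library, and 6 WT libraries were above every Fmr1-KO library, so the groups overlapped between 427 and 484 CPM. Between the groups the log2 fold change was −0.34 (SE 0.11, 95% interval −0.57 to −0.11), a level 1.27-fold lower. The unadjusted p was 0.00572, rank 117 of all genes tested, and the Benjamini-Hochberg adjusted edgeR p was 0.554.

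The size of the Dlgap3 difference rested partly on 1 library. WT replicate 3 stood at 808 CPM and the next WT library at 529 CPM. Without it the WT level was 488 ± 39.1 CPM (SD, n = 7), the Fmr1-KO level 418 ± 47.2 CPM (SD, n = 8) and the log2 fold change −0.23 (SE 0.08, unadjusted p = 0.01, adjusted p = 0.624 by edgeR), in a fit where 7.36% of all genes had an unadjusted p under 0.05. Without WT replicates 3 and 6 it was −0.25 (SE 0.08, adjusted p = 0.6 by edgeR). The direction held in each of the 29 settings tried, from −0.37 to −0.23. In both TPM fits it held only relative to the median of all genes, which lay at 0.55 and 0.62. Dlgap3 TPM itself averaged 204 ± 94.7 in WT and 204 ± 22.7 in Fmr1-KO (SD, n = 8 each). The smallest adjusted p among the settings was 0.178, in limma-voom with quality weights.

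Most Dlgap3 RNA was a single form, so the fold change of that form largely repeats that of the gene. Dlgap3-001 held 90.2% of the counts. It ran from 364 CPM over a median of 493 to 754 CPM in WT, and from 331 over 393 to 449 CPM in Fmr1-KO. The log2 fold change of Dlgap3-001 was −0.35 (SE 0.12, unadjusted p = 0.01), and it did not pass over the 16772 transcripts tested by edgeR. Its share of the gene's counts was 90.8% ± 4.87 in WT and 89.6% ± 3.65 in Fmr1-KO (SD, n = 8 each), a difference smaller than the spread in either group.

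Dlgap1 encodes SAPAP1, also called GKAP, and lies on chromosome 17 at 69969073 to 70821413 (plus strand, GRCm38, ENSMUSG00000003279). In WT its lowest value was 1037, its median 1094 and its highest 1502 CPM. In Fmr1-KO the lowest was 1078, the median 1275 and the highest 1381 CPM. The groups overlapped over nearly the whole range, and 6 of 8 Fmr1-KO libraries were above the WT median. The log2 fold change was 0.07 (SE 0.09, 95% interval −0.11 to 0.25, adjusted p = 0.879 by edgeR). Without WT replicate 3, again the highest WT library, it was 0.13 (unadjusted p = 0.106).

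Dlgap1 was spread over more forms than any other SAPAP gene, 16 transcripts of which 11 passed the filter on low counts. Its forms differ in their start. Dlgap1-001 and Dlgap1-004 begin with a long first coding exon, and Dlgap1-006 begins farther downstream at a separate start codon. The first 45 coding bases of each kind are printed, with the start codon in capitals, at chr17:70516022-70516066 and chr17:70522188-70522232.
Dlgap1-004: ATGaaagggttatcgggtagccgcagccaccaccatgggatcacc
Dlgap1-006: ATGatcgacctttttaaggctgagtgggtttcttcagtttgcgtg
The forms compared were Dlgap1-001 and Dlgap1-004 with the long start, and Dlgap1-006, Dlgap1-014 and Dlgap1-015 with the downstream start. Coding forms Dlgap1-002, Dlgap1-003 and Dlgap1-007, with 3.14%, 2.74% and 2.83% of the gene's counts, were left out. The long start made up 33.3% ± 2.82 of the summed TPM of the compared forms in WT and 33.0% ± 5.71 in Fmr1-KO (SD, n = 8 each). Among these forms the choice of start did not differ between the groups beyond their spread. A second difference is a 30-base exon at chr17:70718196-70718225, found in Dlgap1-004 and in 2 of the forms with the downstream start, Dlgap1-014 and Dlgap1-015. It is printed in capitals between 15 bases on each side, since its share is what the next values give.
Dlgap1-004, 30-base exon: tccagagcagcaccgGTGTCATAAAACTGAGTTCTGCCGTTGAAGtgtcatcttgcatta
Forms with this exon made up 48.2% ± 8.98 of the summed TPM of the same compared forms in WT and 55.3% ± 3.43 in Fmr1-KO. All 8 Fmr1-KO libraries were above the WT median. The 2 lowest WT values, 40.1% and 30.2%, were those of WT replicates 3 and 6, and the 6 deeper WT libraries averaged 52.5% ± 3.61. In estimated counts the share was 32.7% ± 6.39 in WT and 39.1% ± 4.01 in Fmr1-KO, or 35.6% ± 3.73 in the 6 deeper WT libraries. These exon shares were not tested on their own. The edgeR test of transcript usage did not call Dlgap1 (adjusted p = 0.999).

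Dlgap2 encodes SAPAP2 and had the lowest TPM of its family (chromosome 8, 14095865 to 14847680, plus strand, GRCm38, ENSMUSG00000047495). In WT its lowest value was 81.6, its median 117 and its highest 135 CPM. In Fmr1-KO the lowest was 104, the median 128 and the highest 175 CPM. The groups overlapped from 104 to 135 CPM, 3 Fmr1-KO libraries were above every WT library, and 2 WT libraries, among them replicate 3, were below every Fmr1-KO library. The fitted log2 fold change was 0.23 (SE 0.12, 95% interval −0.02 to 0.48, adjusted p = 0.657 by edgeR). Scaled by library totals it was 0.27, with an unadjusted p of 0.0469, in a fit where 6.66% of all genes had one under 0.05.

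Dlgap2-001 held 68.8% of the Dlgap2 counts, while Dlgap2-002 held 5.31%. The coding sequences of these 2 forms differ only in the first piece, printed in capitals before the bases they share, at chr8:14179667-14179681 for Dlgap2-001 and chr8:14096124-14096141 for Dlgap2-002, because the minor form had the largest fold change of any named transcript.
Dlgap2-001: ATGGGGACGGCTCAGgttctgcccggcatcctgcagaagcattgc
Dlgap2-002: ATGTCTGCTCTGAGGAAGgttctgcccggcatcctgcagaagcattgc
Dlgap2-002 held at least 1 count in 7 Fmr1-KO libraries, with a highest value of 26.9 CPM and a median of 11.2 CPM. It held at least 1 count in 3 WT libraries, with a highest value of 5.90 CPM. In the other 6 libraries it was listed at 0, among 45 to 372 Dlgap2 counts each, which allows shares of up to 0.806% to 6.67%. The fitted log2 fold change of 2.78 (SE 1.004) depends on how values of 0 are handled; its unadjusted p was 0.0132 and its adjusted p 0.9999 by edgeR over all transcripts. Dlgap2-001 itself had 0.19 (SE 0.32), and leaving out 1 library moved it between 0.03 (without WT replicate 3) and 0.30 (without WT replicate 6).

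Dlgap4 encodes SAPAP4 and lies on chromosome 2 at 156613705 to 156764363 (plus strand, GRCm38, ENSMUSG00000061689). In WT it ran from 340 CPM over a median of 415 to 455 CPM. In Fmr1-KO it ran from 364 over a median of 407 to 435 CPM. It was the member of lowest relative spread over the 16 libraries (408 ± 30.2 CPM, SD), and the Fmr1-KO values lay inside the WT range throughout. The log2 fold change was −0.01 (SE 0.07, 95% interval −0.16 to 0.15, adjusted p = 0.987 by edgeR), and its sign turned with the scaling, to 0.04 with library totals. Dlgap4-201 held 71.0% and the shorter Dlgap4-003 15.9% of the counts. The long form Dlgap4-201 took 78.8% ± 6.87 of the summed TPM of both in WT and 72.7% ± 8.60 in Fmr1-KO (SD, n = 8 each), with 3 Fmr1-KO libraries below and WT replicate 3, at 93.7%, above all libraries of the other group.

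**Figure D3:**
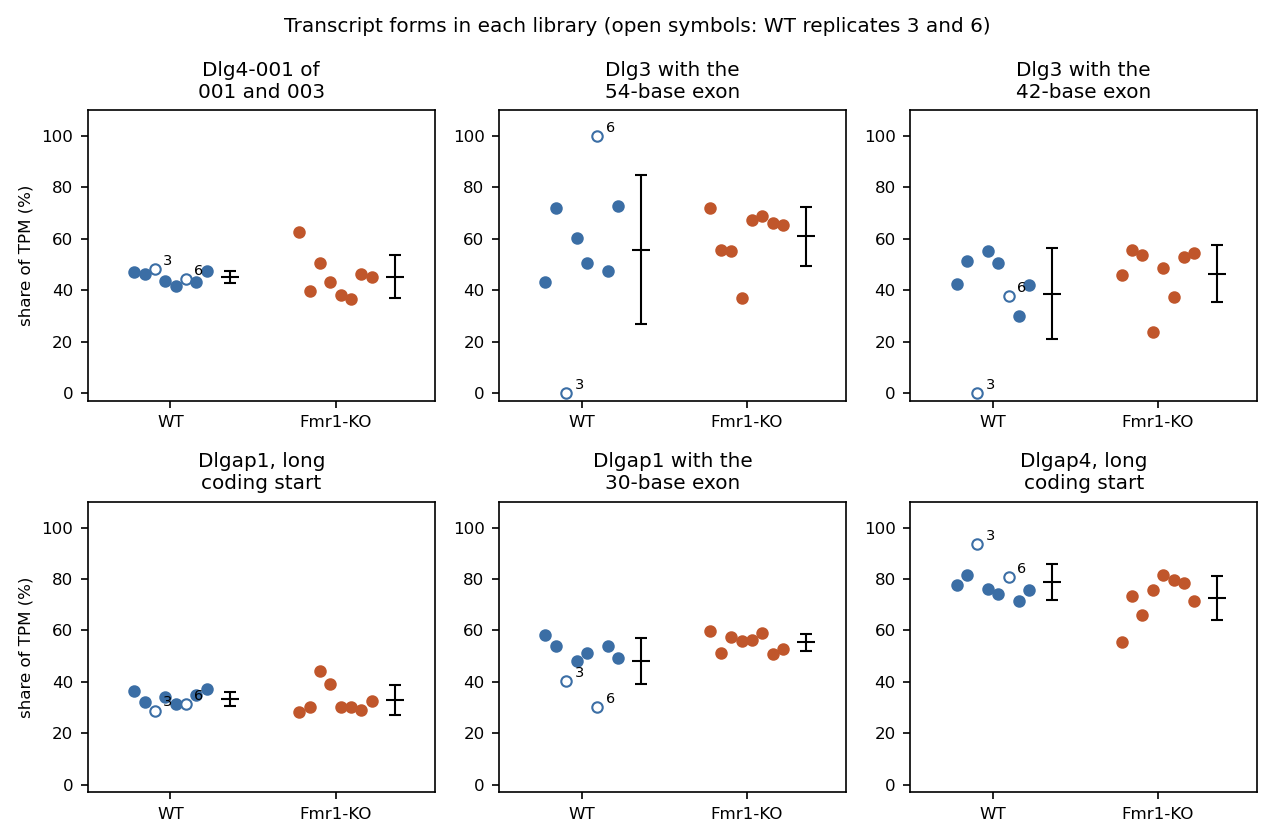
Share of one form among the compared coding forms (percent of summed TPM, vertical axes) of Dlg4, Dlg3, Dlgap1 and Dlgap4 in each WT and Fmr1-KO library, with bars for the mean and SD (n = 8) and open symbols for WT replicates 3 and 6. The group means lie within 1 SD of the wider group in each panel, and the extreme Dlg3 values, near 0% and 100%, belong to the open symbols.

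Over all 89 member transcripts, 33 passed the filter on low counts and 56 did not, and 6 were under 1 count in every library. None of the 33 passed the adjusted edgeR test, where 1 of 16772 transcripts or 0.00596% passed. At an unadjusted p under 0.05 there were 2 of the 33, Dlgap3-001 (lower) and Dlgap2-002 (higher), against 3.91% of all transcripts tested. Transcript usage, the share of each transcript within its gene, was tested with the same package (diffSpliceDGE). All 8 members could be tested, 0 passed and 0 had an unadjusted p under 0.05, against 0.0577% and 3.32% of the 3467 genes tested. Among single transcripts 2 of 33 had an unadjusted usage p under 0.05, Dlgap2-002 (0.0198) and Dlgap4-002 (0.0391), against 1.23% of all transcripts tested, and 0 passed, against 0.0209%.

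Markers of non-neuronal cells were also lower in Fmr1-KO, beside Dlg1 and Dlgap3, and some lists of neuronal markers leaned the same way. Of the astrocyte markers 7 of 7 were lower (median log2 fold change −0.38), with sums of 605 to 769 CPM in Fmr1-KO, 627 to 846 CPM in 7 WT libraries and 1859 CPM in WT replicate 3. Without WT replicates 3 and 6 that median was −0.11. Of the oligodendrocyte markers 8 of 8 were lower (median −0.38), with sums of 263 to 481 CPM in Fmr1-KO and 284 to 681 CPM in WT. Without WT replicates 3 and 6 the oligodendrocyte median was −0.36. Of the microglial markers 6 of 6 tested were lower (median −0.36, and −0.26 without WT replicates 3 and 6). They summed to 105 to 207 CPM in Fmr1-KO, 134 to 178 CPM in 7 WT libraries and 317 CPM in WT replicate 3. Of the endothelial and pericyte markers 8 of 8 were lower (median −0.64, and −0.39 without WT replicates 3 and 6), with sums of 79.8 to 151 CPM in Fmr1-KO, 95.3 to 283 CPM in 7 WT libraries and 395 CPM in WT replicate 3. None of these markers passed edgeR, and Mog, Aif1 and Tmem119 were the ones under 1 count in some library. Of the interneuron markers 6 of 8 were lower (median −0.27, and −0.07 without WT replicates 3 and 6), with sums of 185 to 386 CPM in Fmr1-KO and 219 to 393 CPM in WT, and Sst and Vip were under 1 count in some library. Of the CA1 pyramidal markers 5 of 7 were lower (median −0.08, and −0.02 without WT replicates 3 and 6). Of the CA3 and dentate markers 3 of 3 tested were lower (median −0.16, and 0.07 without these libraries). Of the excitatory neuron markers 3 of 5 were higher (median 0.08). The part of any of these cell types in the differences of Dlg1 and Dlgap3 was not tested.

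The proteins that the 2 families hold together were followed as 5 lists. Of 100 listed genes 99 were tested, 57 were higher and 42 lower, and 12 (12.1%) had an unadjusted p under 0.05, beside 7.89% of all genes. Only Fmr1 passed edgeR. It is the targeted gene and was listed under palmitoylation, transport and turnover, so these totals include 1 gene whose difference follows from the genotype itself. In the Shank and Homer layer, the scaffold below SAPAP, 4 of 6 were higher (median log2 fold change 0.13, beside −0.01 over all genes). Homer2, which links Shank to metabotropic glutamate receptors, had 210 ± 24.1 CPM in the WT and 260 ± 38.4 CPM in the Fmr1-KO group (SD, n = 8 each), a log2 fold change of 0.30 with an unadjusted edgeR p of 0.00535. Shank3 was on the other side, at 445 ± 68.6 and 384 ± 39.2 CPM, a log2 fold change of −0.21 with an unadjusted edgeR p of 0.0339. Homer1 had 0.26 (SE 0.17), with 0.15 when Fmr1-KO replicate 7 was left out and 0.17 without WT replicates 3 and 6. Without these WT libraries Homer2 was 0.26 and Shank3 −0.16.

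Among the receptors and adhesion proteins that the PDZ domains hold, 15 of 23 were higher (median 0.09). Grin2b, an NMDA receptor subunit that binds PSD-95 directly, had 1835 ± 614 CPM in the WT and 2350 ± 419 CPM in the Fmr1-KO group (SD, n = 8 each), a log2 fold change of 0.36 with an unadjusted edgeR p of 0.0484. Cacng8, an AMPA receptor auxiliary subunit, had 0.17 and an unadjusted edgeR p of 0.0449, and Adam22, the receptor of the secreted protein LGI1, had 0.19 (SE 0.10). Among the signalling partners 16 of 27 were higher (median 0.05). An unadjusted edgeR p under 0.05 was found for 5, of which 4 were higher and 1 lower, beside 7.89% of all genes tested. The 3 genes of smallest p were among the higher ones. The kinase subunit gene Camk2b had 0.17, and the exchange factor genes Kalrn and Iqsec1 0.21 and 0.20. Among genes of palmitoylation, transport and turnover of the Dlg proteins 15 of 27 were higher (median 0.06), with Fmr1 among the lower ones. The motor gene Kif1b, whose protein binds PSD-95, had 0.28 with an unadjusted edgeR p of 0.0193, and Mef2d, a transcription factor gene of activity-dependent synapse removal, had 0.17 (SE 0.08). Among 16 other MAGUKs tested 7 were higher and 9 lower (median −0.01). Dlg5, a more distant MAGUK, had −0.58 with an unadjusted edgeR p of 0.0293, and the junction protein gene Tjp1 and the polarity scaffold gene Mpp3 had −0.22 and −0.36. Without WT replicate 6 the Mpp3 value was −0.13, and without WT replicates 3 and 6 it was −0.10. Without WT replicates 3 and 6 Dlg5 was −0.40, Tjp1 −0.17, Grin2b 0.24, Cacng8 0.12 and Adam22 0.19. In that fit Iqsec1 was 0.16, Camk2b 0.15, Kalrn 0.18, Kif1b 0.27 and Mef2d 0.11.

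Across the 16 libraries the members did not vary as 1 group. Among the 28 pairs of members, Spearman's rho of log2 CPM was highest for Dlg2 and Dlgap1 (0.76, and 0.72 without WT replicates 3 and 6). Dlg4 and Dlgap3 had 0.60 (0.56), as did Dlg3 and Dlgap2 (0.60 and 0.55), and Dlg1 and Dlgap3 had 0.57 (0.53). The lowest was −0.47, for Dlg2 and Dlgap4 (−0.39 without WT replicates 3 and 6). The order of the pairs changed without those libraries. Dlg2 and Dlgap2 then had 0.72 (0.49 over all 16), and Dlgap1 and Dlgap2 had 0.61 (0.31 over all 16). Dlg1 and Dlgap1 were then the lowest pair, at −0.43. Among the 7168 genes of at least 20 CPM compared, Dlgap4 was most like Pdxdc1 (rho 0.92), Dlg3 most like Unc13a (0.91), and Dlgap1 most like Ago1 and Zfp865 (0.90 each). Dlgap2 was most like Arfgef2 (0.86), Dlg1 most like Lats2 (0.85), Dlgap3 most like Itga7 (0.83) and Dlg4 most like Polr2m (0.81). These are descriptions over 16 libraries that share their preparation and differ in depth, and the highest of 7168 values is high by its choice. Both genotypes are pooled, so any difference between the groups enters rho, and values within a genotype are not given. Without the 2 shallow libraries, all 3 genes most like Dlgap1 and 2 of those most like Dlgap4 remained, 1 each for Dlg1 and Dlg3, and 0 for Dlg4, Dlgap2 and Dlgap3.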

How the data were processed

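RNA of the CA1 subfield from 16 mice was sequenced, and kallisto, cutadapt, FastQC and DESeq2 are listed in the submitters' processing notes. The sources used here give no version, build or transcript index. The estimated counts deposited by the authors divide reads between transcripts by a model, so forms of a gene that share sequence depend on each other. The deposited TPM values are relative abundances per length, computed for each library separately, and hold no depth. Estimated counts were summed per gene symbol and rounded. Genes, transcripts and transcript usage were tested over whole tables with edgeR 4.0.16 (quasi-likelihood, TMM, filterByExpr with a minimum count of 10, no covariate, 14 residual degrees of freedom before moderation) in R 4.3.3; p-values were adjusted by Benjamini and Hochberg's method at 0.05. Scripts were tested on simulated data. Alternatives used DESeq2 1.42.0, limma 3.58.1, other scalings, filters and units, the animal code's letter or number, and fewer libraries. Positions, exons and sequences come from GENCODE M21 (GRCm38): all 89 member transcripts matched by identifier, 70 with the deposited length. Named transcripts hold at least 10% of a gene's counts or have an unadjusted p under 0.05. From each list the 3 genes of smallest p are named, and for each member up to 3 genes most like it. The genes most like Dlg2 are not reported here. The members, lists and tests were chosen with earlier results of these data known. The exon shares in counts, the shares without WT replicates 3 and 6, the omission of WT replicate 3 alone and the centring of TPM fits were added after seeing the data. Limits for transcripts listed at 0 use 3 counts and cover counting error only. Replicate numbers only name the libraries.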

Additional observations from a re-analysis of the deposited data

Results flagged for a closer look

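Of 56 groups of 8 values tested (9 genes and 19 transcripts in each genotype), 13 held a library whose gap to its nearest neighbour was large for the group's range. Chance alone would mark about 1 group in 20 if values were independent and normally distributed. That does not hold here, since genes share counts with their transcripts and some transcripts were mostly at 0, so no excess can be read from these counts. WT replicate 3 accounted for 5 of them. It was high for Dlg4 (1504 CPM, others 1002 to 1135), Dlgap3 (808 CPM, others 427 to 529) and Dlgap3-001 (754 CPM, others 364 to 527). It was low for Dlg3 (109 CPM, others 288 to 365) and for Dlg3-003 (0 CPM, others 110 to 195). WT replicate 6 was high for Dlg3-001 (200.4 CPM, others up to 90.6), and both libraries are the shallow ones. WT replicate 7 was high for Fmr1 (99.7 CPM, others 39.6 to 65.98), Dlg1-001 (19.5 CPM) and Dlg1-201 (19.97 CPM). Fmr1-KO replicate 4 was high for Dlg1-001 (27.4 CPM) and Dlg3-006 (227 CPM, others 90.99 to 155). Fmr1-KO replicate 2 was high for Dlg1-002 (32.04 CPM), and Fmr1-KO replicate 1 was low for Dlg4-003 (330 CPM, others 504 to 599).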

How the results depend on the processing

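No member passed in any of the alternatives run. Over all genes 2 passed edgeR, and 6 passed the DESeq2 Wald test, 5 edgeR with no filter, 7 limma-voom with quality weights, 1 length-scaled TPM counts, 0 log2(TPM + 1) and 0 log2(TPM + 0.1). The TPM fits had 902 and 736 genes at an unadjusted p under 0.05, against 909 with edgeR. They moved the median of all genes by 0.55 and 0.62 on the log2 scale, so their fold changes are given relative to it, while their p-values are not. Leaving out each library in turn gave 2 to 3. For transcripts, where 1 passed, DESeq2 gave 12, log2(TPM + 1) 0 (1000 at an unadjusted p under 0.05, median 0.52) and single omissions 1 to 2. For usage, where 2 genes passed, omitting WT replicates 3 and 6 gave 5 and single omissions 1 to 3. Dlgap4 reversed to 0.0377 (library totals), 0.00867 (no filter) and 0.00699 (1 CPM in 8 libraries). Tjp1 reversed to 0.18, 0.17 and 0.12 (both TPM fits relative to their median, and length-scaled counts), Mpp3 to 0.0339 (coding transcripts), Dlg3-001 to 0.0661, 0.32 and 0.29 (library totals, log2(TPM + 1), without WT replicates 3 and 6), Dlg3-006 to −0.12 (without them) and Dlgap1-006 to −0.0242 (DESeq2). Single omissions also reversed Dlgap4 (−0.0367 to 0.0219), Dlg1-006 (−0.26 to 0.15), Dlg3-001 (−0.42 to 0.50), Dlg3-006 (−0.066 to 0.23) and Dlgap1-006 (−0.0739 to 0.11). The cause was not tested. No pairing between the genotypes was possible, because the replicate numbers only name the libraries and no animal number occurs in both genotypes. Depth limits Dlg1 most, and the transcripts of Dlg1 and Dlg3 in both shallow libraries.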

Other observations

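WT replicate 3 held a distinct profile among the postsynaptic genes, given here as values looked up after the member results were seen. Besides Dlg4, Dlgap1 and Dlgap3 it was the highest of 16 libraries for Shank1 (2972 CPM, others 1330 to 1924), Camk2a (6037 CPM, others 3460 to 4622) and Ddn, a dendritic mRNA (4979 CPM, others 2846 to 3851). The same held for Map2 (1217 CPM, others 460 to 902) and Psd (1219 CPM, others 707 to 1032). The mRNAs of Camk2a, Ddn, Shank1, Map2, Dlg4 and Dlgap3 are known to occur in dendrites. In the same library Dlg3, Dlgap2 and Dlgap4 were below all 15 others (109, 81.6 and 340 CPM), and the astrocyte markers summed to 1859 CPM, against 605 to 846 elsewhere. These genes were chosen for their high values, so their agreement carries no weight of its own, and no explanation was tested.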
